A study of Mus musculus with 9 samples.

Results

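The liver converts cholesterol to bile acids through a chain of enzymes, and 10 genes of that chain were described here across the study's 3 groups. They were taken from a list by symbol (Cyp7a1, Cyp8b1, Cyp27a1, Cyp7b1, Cyp39a1, Cyp2c70, Akr1d1, Amacr, Baat and Slc27a5), and the 10 were found among 16521 genes in the deposited data. Liver RNA of 9 samples from C57BL/6 mice had been sequenced, 3 per group. The SAR group was fed a methionine-choline-deficient (MCD) diet, a common dietary model of fatty liver with inflammation, and was treated with a high dose of sarsasapogenin (SAR), a plant steroidal sapogenin, in an amount the labels do not state. The model group was fed the MCD diet, and the normal group was given saline, on a diet the labels do not name. Allocation to the groups was random, per the design text, the normal samples are titled wt, and no other genotype is given beside the strain. The sex, age and time of collection are not given either. The labels do not tie samples to individual mice, so each p-value below reflects spread among the samples in its fit alone. How much of that spread is technical is not known.

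Bile acid synthesis has 2 main routes. In the classic route Cyp7a1 hydroxylates cholesterol itself and limits the rate of synthesis, and Cyp8b1 adds the hydroxyl group that makes cholic acid. In the alternative route Cyp27a1 first oxidises the sterol side chain in mitochondria and Cyp7b1 then hydroxylates the resulting oxysterol. Both routes share enzymes that reduce the steroid nucleus, shorten the side chain in peroxisomes and join the product to taurine or glycine, and rodents also make muricholic acids through Cyp2c70. Bile acids feed back on their own synthesis through the nuclear receptor FXR and the small heterodimer partner SHP, encoded by Nr1h4 and Nr0b2.

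Promoter sequence is shown for Cyp8b1 and Cyp2c70, because both carry the same 9-base HNF4A half-site at nearly the same distance from the start. Cyp8b1 was lower in model livers than in SAR or normal livers. Cyp2c70 was also lower in model than in SAR livers, but its values overlapped between the model and normal groups. The sequences are from RefSeq on build GRCm38.p6, of which the promoter table held 4 of the 10 genes (Cyp8b1, Cyp27a1, Cyp2c70 and Akr1d1). Each line gives the 120 bases before the annotated start, 5′ to 3′ on the minus strand that carries both genes, at chr9:121916306-121916425 for Cyp8b1 and chr19:40187287-40187406 for Cyp2c70. Capitals mark motif matches.
Cyp8b1: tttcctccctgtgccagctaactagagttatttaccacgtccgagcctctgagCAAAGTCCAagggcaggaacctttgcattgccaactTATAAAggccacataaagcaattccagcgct
Cyp2c70: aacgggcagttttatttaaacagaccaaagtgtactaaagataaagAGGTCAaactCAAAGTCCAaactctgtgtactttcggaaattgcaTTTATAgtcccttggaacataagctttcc
The HNF4A half-site CAAAGTCCA lay at bases -67 to -59 in Cyp8b1 and at -64 to -56 in Cyp2c70, and it occurred in 0.475% of 32851 RefSeq windows of 300 bases. The TATA box TATAAA began at base -31 in Cyp8b1, and its reverse complement began at -29 in Cyp2c70, with a match in 13.6% of windows. The nuclear receptor half-site AGGTCA began at -74 in Cyp2c70 (16.3% of windows), and its reverse complement began at -232 and -210 in Akr1d1, whose window also held the C/EBP core TTGCNNAA at -8 on the minus strand of the gene (10.8% of windows). The NR5A2 core CAAGGTC (3.96%), the HNF1 palindrome (0.00913%) and TTATGTAA (D-box of DBP and related factors, 0.938%) matched none of the 4 windows. Both strands were searched, and the Cyp27a1 window held none of the 7 motifs. A match describes the letters only.

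Per-library values were recovered from the deposited group means and are reads divided by size factors on a scale common to the 9 libraries, called normalised reads. The letters a, b and c order a group's libraries by size factor and are not the labels' replicate numbers. Recovered reads came to 6570181 to 7112046 per SAR library, 12503819 to 14939063 per model library and 7571460 to 8688710 per normal library. These made up 55.1% of the summed means of the SAR group, 100% of those of the model group and 54.1% of those of the normal group. The read numbers therefore do not compare the depth of model libraries with that of the others. In the SAR and normal groups 57 and 77 genes could not be split by library. Normal library c stood apart: Lcn2, an acute phase gene, was at 41023 normalised reads there and at 90.3 and 262 in normal libraries a and b. The male-biased liver gene Elovl3 was at 35.3 in normal library c and at 7378 and 6954 in a and b. Model library c had the lowest summed level of 7 cholangiocyte markers in its group, 2095 against 9760 and 11066. Hepatocyte markers were present in every library, and 4 of 10 could be summed (Serpina1a, Hnf4a, Asgr1 and F2). Y-linked genes were present in all 9 libraries, at 1393 to 2580 summed normalised reads over 4 genes.

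**Figure D1:**
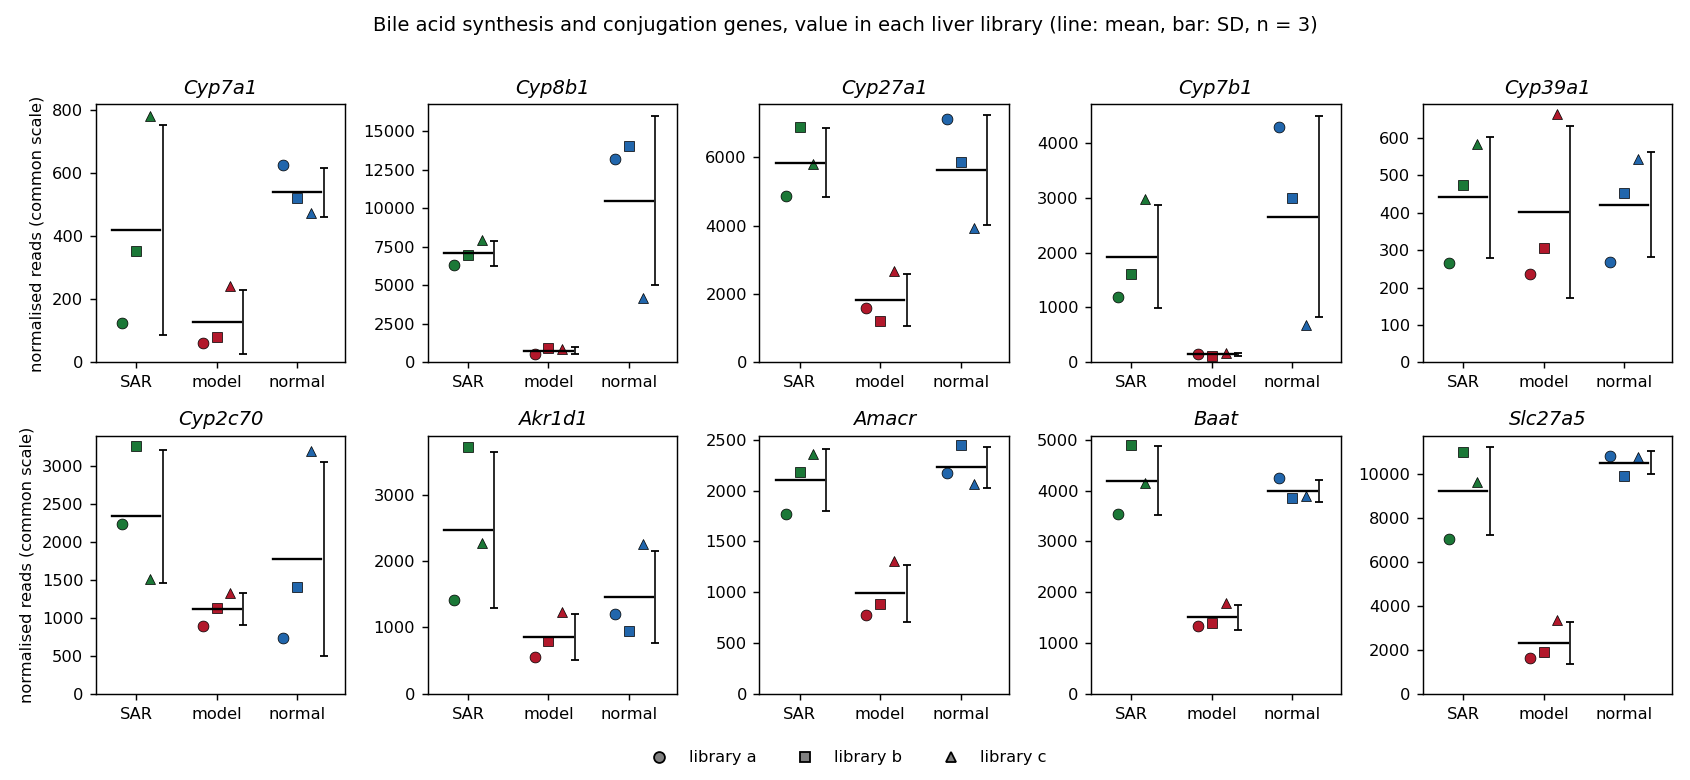
Normalised reads (linear axes from 0, scale common to the 9 libraries) of the 10 genes in SAR, model and normal livers. Each point is a library (circle a, square b, triangle c), the line is the mean and the bar the SD of 3 libraries. Cyp8b1 and Cyp7b1 are lowest in the 3 model libraries, and their normal library c lies below the other normal libraries.

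SAR livers were compared with model livers to ask how SAR changed expression under the MCD diet. Of the 10 genes 8 rose and none fell, and Cyp7a1 and Cyp39a1 did not pass the test. Among 12477 genes tested 13.2% rose and 16.1% fell. The largest rises were those of Cyp7b1 and Cyp8b1, one from each route. Rises were called at a Benjamini-Hochberg adjusted p under 0.05 by limma on log2(value + 1). The median log2 fold change was 1.57 over the 10 genes and 0.014 over all genes tested.

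Cyp7a1 (ENSMUSG00000028240, chromosome 4), the rate-limiting enzyme of the classic route, stood at 125, 352 and 781 normalised reads in SAR libraries a, b and c. In model libraries a, b and c it stood at 60.5, 80.1 and 243. SAR library c was the highest and SAR library a lay between model libraries b and c, so the groups overlapped. The log2 fold change was 1.63 (SE 0.67, limma adjusted p = 0.0944), with a 95% interval of 0.12 to 3.15 before adjustment. It passed without SAR library a (log2 2.32, limma adjusted p = 0.0265) and without model library c (log2 2.23, limma adjusted p = 0.0115).

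The clock output gene Dbp was highest in the same library of each of these groups. Dbp stood at 119, 183 and 796 normalised reads in SAR libraries a, b and c and at 52.6, 22.9 and 769 in the model libraries. Arntl, a core clock gene of the opposite phase, stood at 122, 128 and 29.5 in the SAR libraries and at 156, 141 and 27.1 in the model libraries. Within both groups, library c thus had the most Cyp7a1, the most Dbp and the least Arntl. With library c of both groups left out, an alternative chosen after the values were seen, Cyp7a1 was called (log2 1.60, limma adjusted p = 0.0173). The 12 clock genes of a list chosen after the values were seen summed to 4618 to 7896 normalised reads in SAR libraries. They summed to 2605 to 6864 in model libraries, and library c was the highest in both groups. The list mixes genes that moved in opposite ways: Arntl, Npas2 and Clock were lowest in library c of both groups. Its sum therefore does not measure phase. In normal libraries a, b and c the sum was 5098, 3932 and 6605, and normal library c had the least Cyp7a1 of its group. Whether clock phase took part in the Cyp7a1 spread was not tested.

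Cyp8b1 (ENSMUSG00000050445, chromosome 9), which makes the route to cholic acid, stood at 6320, 6984 and 7910 normalised reads in the SAR libraries. It stood at 516, 926 and 861 in the model libraries. Every SAR library was above every model library, and Cyp8b1 rose by 3.26 (log2, SE 0.24, limma adjusted p = 0.00018). Its SAR libraries were close together, with a range of 0.32 on the log2 scale, against 0.38 for the median of 8237 genes.

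In the alternative route, Cyp27a1 (ENSMUSG00000026170, chromosome 1), the mitochondrial side-chain hydroxylase, stood at 4857, 6884 and 5798 normalised reads in the SAR libraries. It stood at 1578, 1215 and 2685 in the model libraries. The groups did not overlap, and Cyp27a1 rose by 1.77 (log2, SE 0.29, limma adjusted p = 0.00394). Cyp7b1 (ENSMUSG00000039519, chromosome 3), the oxysterol hydroxylase of this route, stood at 1185, 1618 and 2976 in the SAR libraries and at 157, 115 and 175 in the model libraries. The lowest SAR library was far above the highest model library, and the rise of 3.62 (log2, SE 0.31, limma adjusted p = 0.000382) was the largest of the 10 genes. Cyp7b1 is known to be more active in male mouse liver. Male-biased liver genes were a list chosen after the values were seen. Elovl3, Hsd3b5, Slco1a1 and Cyp2d9 (4 of 5 genes) summed to 25109 to 30086 normalised reads in the SAR libraries. In the model libraries these genes summed to 747 to 2256. Mup20, also on the list, could not be split by library in SAR livers and is not in the sum. It stood above that sum in the model libraries, at 22758, 17670 and 14233. The part of the male-biased genes in the Cyp7b1 difference was not tested.

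Cyp39a1 (ENSMUSG00000023963, chromosome 17), which hydroxylates the oxysterol exported from the brain, stood at 266, 473 and 583 normalised reads in the SAR libraries and at 237, 307 and 665 in the model libraries. The groups overlapped over most of their range, with a log2 fold change of 0.22 (95% interval -0.68 to 1.12, limma adjusted p = 0.695). Its sign changed without SAR library c (-0.018) and without model library a (-0.090). Cyp2c70 (ENSMUSG00000060613, chromosome 19), the muricholic acid enzyme, stood at 2241, 3262 and 1513 in the SAR libraries and at 897, 1131 and 1326 in the model libraries. Its groups did not overlap but came close, and it rose by 1.03 (log2, SE 0.28, limma adjusted p = 0.0241). That call was lost in a fit of the 9 libraries together (0.121), and also when SAR a (0.0549), SAR b (0.0813), model a (0.0865) or model b (0.0719) was left out.

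Akr1d1 (ENSMUSG00000038641, chromosome 6) reduces the double bond of the steroid nucleus. It stood at 1413, 3721 and 2264 normalised reads in the SAR libraries and at 560, 789 and 1237 in the model libraries. SAR library b was the highest by a wide margin, and the groups did not overlap. Akr1d1 rose by 1.50 (log2, SE 0.37, limma adjusted p = 0.0183). It no longer passed when SAR b (0.0677), SAR c (0.0567), model a (0.0674) or model b (0.062) was left out. Amacr (ENSMUSG00000022244, chromosome 15), the racemase that prepares side-chain intermediates for peroxisomal oxidation, stood at 1768, 2186 and 2366 in the SAR libraries and at 775, 888 and 1310 in the model libraries. It rose by 1.13 (log2, SE 0.22, limma adjusted p = 0.0071), with no overlap.

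Both conjugation enzymes rose. Slc27a5 (ENSMUSG00000030382, chromosome 7), the ligase that activates bile acids with coenzyme A, stood at 7066, 11029 and 9632 normalised reads in the SAR libraries and at 1635, 1912 and 3387 in the model libraries. It rose by 2.07 (log2, SE 0.30, limma adjusted p = 0.00242). Baat (ENSMUSG00000039653, chromosome 4), which transfers the activated bile acid to taurine or glycine, stood at 3540, 4893 and 4154 in the SAR libraries and at 1332, 1399 and 1788 in the model libraries. Baat rose by 1.50 (log2, SE 0.20, limma adjusted p = 0.00161). For both genes every SAR library was above every model library.

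Values of 8 of the 10 genes did not overlap between SAR and model livers, against 45.3% of all genes tested. The authors' deposited table called 6 of the 10 higher in SAR livers by their DESeq test and none lower, against 6.79% of its 16294 genes called higher and 9.76% called lower. The 4 not called in the authors' deposited table were Cyp7a1 (adjusted p = 0.359), Cyp39a1 (0.964), Cyp2c70 (0.0822) and Akr1d1 (0.0862). The 4 summed hepatocyte markers ranged from 69783 to 74324 normalised reads in SAR libraries and from 27921 to 43983 in model libraries. Of these Asgr1 overlapped between the groups, and Serpina1a, Hnf4a and F2 did not. Macrophage markers summed to 2290 to 3013 in SAR libraries and 5923 to 7661 in model libraries (6 of 6 genes), and cholangiocyte markers to 908 to 1900 in SAR libraries and 2095 to 11066 in model libraries (7 of 7 genes). Of the 6 macrophage markers, Clec4f averaged 829 in SAR and 823 in model livers, and the other 5 had the lower mean in SAR livers. Neutrophil markers summed to 209 to 537 in SAR libraries and 1112 to 2657 in model libraries. In bulk liver, fewer hepatocytes and less RNA per hepatocyte cannot be told apart, and the part of cell composition in these differences was not tested.

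**Figure D2:**
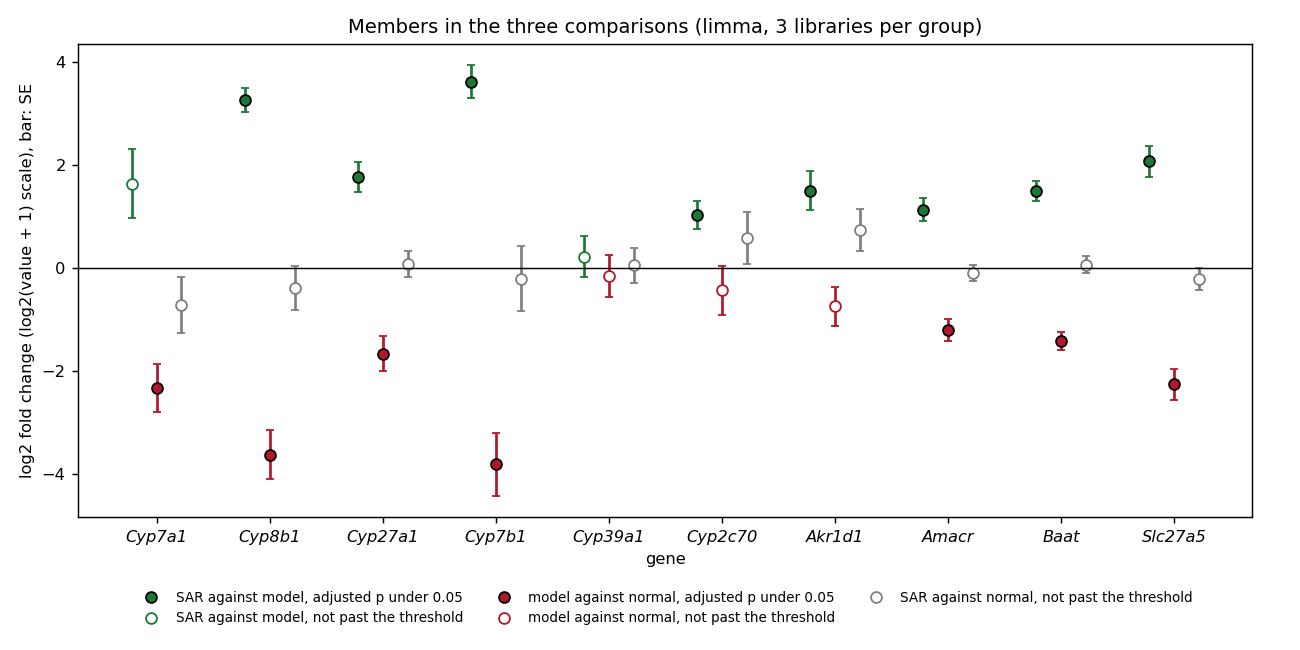
Log2 fold change (vertical axis, log2(value + 1) scale, bars SE, limma on 3 libraries per group) of the 10 genes in SAR against model, model against normal and SAR against normal. Filled points passed an adjusted p of 0.05 and open points did not. SAR against normal has 10 open points, and Cyp39a1 is open in each comparison.

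Model livers were compared with normal livers to ask what differed with the MCD diet. The model libraries are shared with the comparison above, so the opposite signs of the 2 comparisons are not independent. Of the 10 genes 7 fell and none rose. Among 12578 genes tested 19.9% rose and 19.1% fell. The values did not overlap for 7 of the 10, against 53.9% of all genes tested, and the median log2 fold change was -1.54 over the 10 and 0.025 over all genes tested.

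Cyp7a1 stood at 60.5 to 243 normalised reads in model libraries, against 626, 521 and 473 in normal libraries a, b and c. Every model library was below every normal library, and Cyp7a1 fell (log2 -2.33, SE 0.47, limma adjusted p = 0.0084). The fall was larger without model library c (log2 -2.93) and smaller without model library a (log2 -1.93, limma adjusted p = 0.0321). Dbp stood at 90.3, 19.4 and 302 in the normal libraries, so the normal library with the most Dbp had the least Cyp7a1. Cyp8b1 stood at 516 to 926 in model libraries, against 13215, 14056 and 4170 in the normal libraries, and fell (log2 -3.63, SE 0.48, limma adjusted p = 0.00226). Normal library c held less than a and b but lay above every model library.

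Cyp27a1 stood at 1215 to 2685 normalised reads in model libraries, against 7116, 5857 and 3933 in the normal libraries, and fell (log2 -1.67, SE 0.34, limma adjusted p = 0.00884). Cyp7b1 stood at 115 to 175 in model libraries, against 4291, 2986 and 688 in the normal libraries, and had the largest fall of the 10 (log2 -3.81, SE 0.61, limma adjusted p = 0.00405). Normal library c had the least Cyp7b1 of its group, and without it the log2 fold change was -4.60. That library also had the least Elovl3, and its summed male-biased genes stood at 10295 normalised reads, against 43245 and 40116 in normal libraries a and b. Mup20, left out of that sum, stood at 37064, 56260 and 1045 in normal libraries a, b and c. In model libraries a, b and c Mup20 stood at 22758, 17670 and 14233, so normal library c lay below every model library. Female-biased liver genes (5 of 5) summed to 30.3, 96.2 and 3306 in model libraries a, b and c, and to 16.3, 23.7 and 1305 in normal libraries a, b and c. Library c was thus the highest of both groups on that list, and model library c also had the most Cyp7b1 of its group (175). The part of either list in the Cyp7b1 spread was not tested.

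Amacr stood at 775 to 1310 normalised reads in model libraries, against 2173, 2452 and 2064 in the normal libraries, and fell (log2 -1.20, SE 0.21, limma adjusted p = 0.00568). Baat stood at 1332 to 1788 in model libraries, against 4247, 3851 and 3885 in the normal libraries, and fell by 1.42 (log2, SE 0.17, limma adjusted p = 0.00196). Slc27a5 stood at 1635 to 3387 in model libraries, against 10854, 9916 and 10780 in the normal libraries, and fell by 2.26 (log2, SE 0.29, limma adjusted p = 0.0022). Slc27a5 and Baat varied least of the 10 genes in normal livers, with log2 ranges of 0.13 and 0.14 over the libraries.

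The other 3 genes did not pass between model and normal livers. Cyp39a1 stood at 237 to 665 normalised reads in model libraries and at 269, 453 and 543 in the normal libraries, with a log2 fold change of -0.15 (95% interval -1.10 to 0.79) whose sign changed without model library a (0.16) or normal library c (0.059). Cyp2c70 stood at 897 to 1326 in model libraries and at 731, 1407 and 3207 in the normal libraries, with a log2 fold change of -0.43 (95% interval -1.54 to 0.67) that became 0.12 without normal library c. Akr1d1 stood at 560 to 1237 in model libraries and at 1196, 946 and 2251 in the normal libraries (log2 -0.74, 95% interval -1.62 to 0.14). Normal library c thus had the most Cyp2c70 and Akr1d1 of its group and the least Cyp8b1, Cyp27a1 and Cyp7b1. In the authors' deposited table the same 3 genes were the ones not called, and the other 7 were called lower in model livers, against 10.3% of its 16374 genes called lower and 13.2% called higher. Without library c of both groups Akr1d1 fell (log2 -0.68, limma adjusted p = 0.00514).

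Summed hepatocyte markers were at 27921 to 43983 normalised reads in model libraries and at 66210 to 75842 in normal libraries. Within that sum Serpina1a, Hnf4a and F2 did not overlap between the groups, but Asgr1 did, at 6953 in model library c and 6689 in normal library a. Ttr, on the list but not in the sum, stood at 37471, 46456 and 48397 in the model libraries. In normal libraries a, b and c Ttr stood at 66164, 64748.5 and 33062, so normal library c lay below every model library. Macrophage markers summed to 5923 to 7661 in model libraries and 2835 to 3203 in normal libraries. Neutrophil markers summed to 1112 to 2657 in model libraries and 96.0 to 7226 in normal libraries (6 of 6 genes), with the highest value in normal library c. Cholangiocyte markers summed to 2095 to 11066 in model libraries and 573 to 996 in normal libraries, without overlap. The macrophage markers did not all go one way: Clec4f averaged 823 in model and 1770 in normal livers and Adgre1 averaged 171 in model and 210 in normal livers, while the other 4 had the higher mean in model livers. The part of these markers in the falls was not tested.

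SAR livers were also set beside normal livers, to ask what differed under the diet with SAR from the normal group. Of the 10 genes none passed limma's test at an adjusted p of 0.05, and none had an unadjusted p under 0.05. Of 11615 genes tested 1.72% rose and 1.85% fell, and 3043 had an unadjusted p under 0.05. For the 10 genes the 2 groups overlapped in each case, whereas values of 33.2% of all genes did not overlap. The median log2 fold change over the 10 was -0.019.

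The intervals of these differences were of unequal width, and a missed threshold does not show equal levels. They were narrow for the conjugation enzymes and Amacr: -0.32 to 0.44 for Baat, -0.69 to 0.27 for Slc27a5 and -0.44 to 0.27 for Amacr (95%, log2). They were wide for Cyp7a1 (-1.98 to 0.54), Cyp8b1 (-1.37 to 0.60), Cyp7b1 (-1.66 to 1.24) and Cyp2c70 (-0.56 to 1.72). Cyp27a1 (-0.48 to 0.64), Cyp39a1 (-0.73 to 0.82) and Akr1d1 (-0.18 to 1.66) lay between.

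Several of these values turned on normal library c. Without it Cyp8b1 fell in SAR livers (log2 -0.95, limma adjusted p = 0.0146). Its SAR libraries, at 6320 to 7910 normalised reads, lay below normal libraries a and b at 13215 and 14056. Without library c of both groups Cyp8b1 fell by 1.04 (log2, limma adjusted p = 0.0201) and Cyp7b1 by 1.37 (limma adjusted p = 0.0162), and Cyp2c70 rose by 1.41 (limma adjusted p = 0.0312).

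The classic and alternative routes were set against each other within each library by ratios of reads, given as a description without a test. The ratio of Cyp7a1 to Cyp7b1 (log2 of reads) was -3.24, -2.20 and -1.93 in SAR libraries, -1.38, -0.52 and 0.48 in model libraries and -2.78, -2.52 and -0.54 in normal libraries. Model libraries lay above SAR libraries on this ratio, without overlap, and normal library c lay within the model range. The ratio of Cyp8b1 to Cyp27a1 was 0.38, 0.021 and 0.45 in SAR libraries, -1.61, -0.39 and -1.64 in model libraries and 0.89, 1.26 and 0.084 in normal libraries. Here model libraries were the lowest and overlapped neither group.

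Model libraries thus lay above SAR libraries on the first of these ratios and below them on the other. The ratio of Cyp8b1 to Cyp7b1 averaged 1.98 ± 0.52 in SAR libraries, 2.34 ± 0.65 in model libraries and 2.15 ± 0.49 in normal libraries (log2, SD, n = 3), and the 3 groups overlapped. The ratio of the first enzymes of each route, Cyp7a1 to Cyp27a1, averaged -4.15 ± 1.20 in SAR libraries, -4.03 ± 0.63 in model libraries and -3.35 ± 0.26 in normal libraries, also with overlap. Within the alternative route, Cyp7b1 over Cyp27a1 averaged -1.70 ± 0.64 in SAR libraries, -3.56 ± 0.34 in model libraries and -1.41 ± 0.97 in normal libraries, and model libraries overlapped neither group. Within the classic route, Cyp8b1 over Cyp7a1 averaged 4.44 ± 1.16 in SAR libraries, 2.82 ± 0.89 in model libraries and 4.10 ± 0.85 in normal libraries, and these overlapped.

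**Figure D3:**
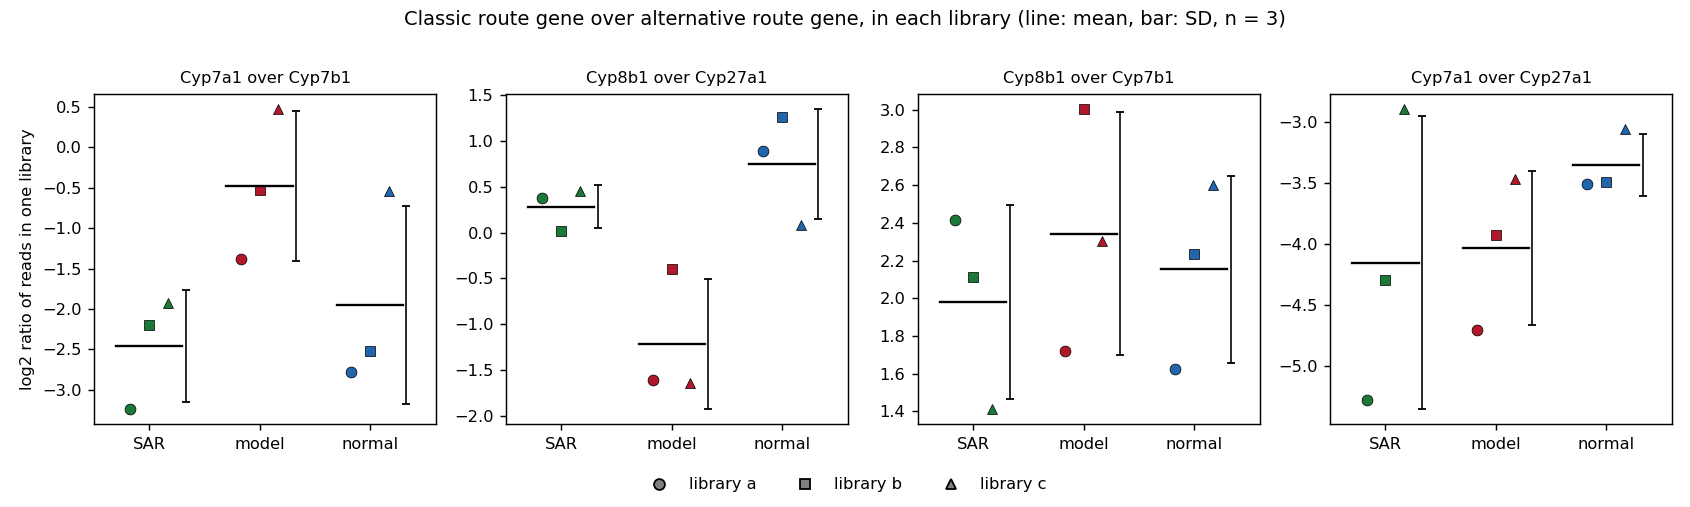
Log2 ratio of reads within a library (vertical axes, each with its own range) for 4 pairs of a classic over an alternative route gene in SAR, model and normal livers, with the mean (line) and SD (bar) of 3 libraries. For Cyp7a1 over Cyp7b1 model libraries lie above SAR libraries but overlap normal library c, for Cyp8b1 over Cyp27a1 they lie below both groups, and the groups overlap in the other 2 panels.

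Levels were compared between genes per kilobase of merged exons, from a mouse annotation (GENCODE M21) that may differ from the one the authors counted with. In SAR livers the order was Slc27a5 (3967 ± 863 normalised reads per kilobase), Cyp8b1 (3626 ± 410), Cyp27a1 (3090.0 ± 536), Baat (2162 ± 349), Cyp2c70, Akr1d1, Cyp7b1, Amacr, Cyp39a1 (144 ± 52.8) and Cyp7a1 (101 ± 79.8). In that group the ranges of neighbours overlapped except between Cyp27a1 and Baat and between Amacr and Cyp39a1. In model livers the order was Slc27a5 (992 ± 404), Cyp27a1 (965 ± 405), Baat (776 ± 127), Cyp2c70 (651 ± 125), Cyp8b1 (394 ± 113), Amacr, Akr1d1, Cyp39a1, Cyp7b1 (68.8 ± 14.1) and Cyp7a1 (30.7 ± 24.0), and only Cyp2c70 and Cyp8b1 did not overlap as neighbours. In normal livers it was Cyp8b1 (5374 ± 2811), Slc27a5 (4514 ± 224), Cyp27a1 (2979 ± 847), Baat (2058 ± 113), Cyp7b1 (1226 ± 842), Cyp2c70, Amacr, Akr1d1, Cyp39a1 and Cyp7a1 (129 ± 18.8).

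Cyp7a1 thus had the lowest mean of the 10 per kilobase in each group, though its range overlapped that of the next gene each time. In normal livers the next gene was Cyp39a1 (138 ± 45.8). There, in library a, Cyp39a1 stood at 88.1 and Cyp7a1 at 150 normalised reads per kilobase. In normal livers 3 pairs of neighbours did not overlap, namely Slc27a5 and Cyp27a1, Baat and Cyp7b1, and Akr1d1 and Cyp39a1. The lowest Baat library, at 1984 normalised reads per kilobase, was just above the highest Cyp7b1 library at 1981. Cyp8b1 held rank 2, 5 and 1 in SAR, model and normal livers, and Cyp7b1 rank 7, 9 and 5. No stretch of 100 bases of any of the 10 genes occurred in another gene of that annotation, and none of their exons overlapped another gene.

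**Figure D4:**
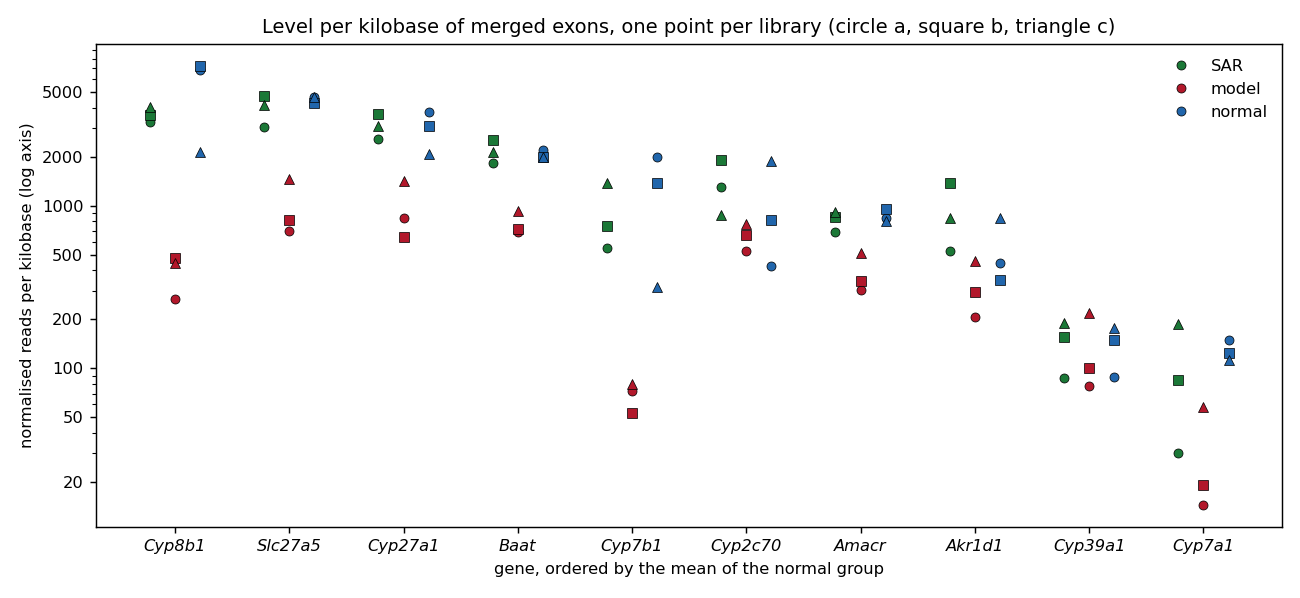
Normalised reads per kilobase of merged exons (log axis) for the 10 genes, ordered by their mean in normal livers, with 1 point per library (circle a, square b, triangle c) for SAR, model and normal livers. Cyp8b1 and Cyp7b1 have the widest gap between model libraries and the rest, and Cyp7a1 is at the low end in each group.

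Spread within a group also differed between the genes. The log2 range of Cyp7a1 over the 3 libraries was 2.63 in SAR livers, larger than that of 99.87% of 8237 genes with a mean of at least 100. It was 1.99 in model livers (98.59% of genes had a smaller range) and 0.40 in normal livers (58.27%). In normal livers the widest ranges were those of Cyp7b1 (2.64), Cyp2c70 (2.13) and Cyp8b1 (1.75), larger than in 97.03% to 98.79% of genes. Library c was the lowest for Cyp7b1 and Cyp8b1 and the highest for Cyp2c70. For Cyp2c70 normal libraries a and b also differed, at 731 and 1407 normalised reads. Akr1d1 had a range of 1.40 in SAR livers, set by library b.

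**Figure D5:**
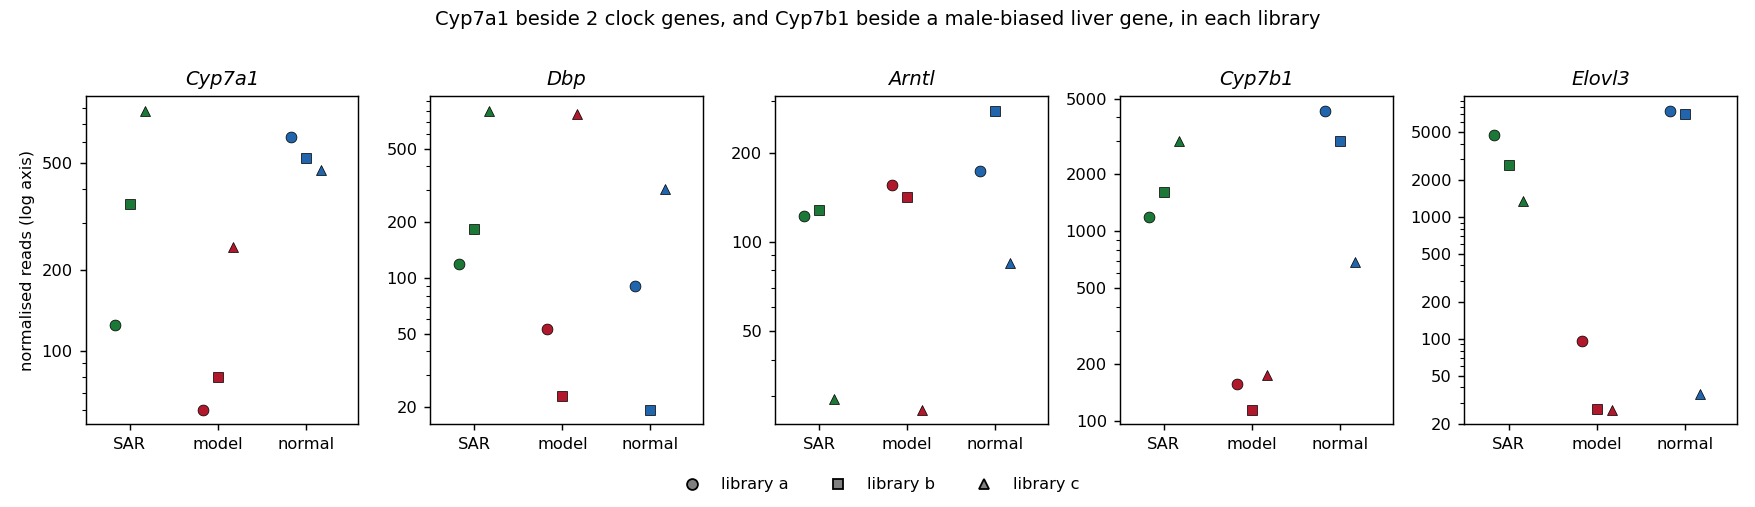
Normalised reads (log axes) of Cyp7a1, the clock genes Dbp and Arntl, Cyp7b1 and the male-biased liver gene Elovl3 in each SAR, model and normal library (circle a, square b, triangle c). Library c of the SAR and model groups is high for Cyp7a1 and Dbp and low for Arntl, and normal library c is low for Cyp7b1 and Elovl3.

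Genes with the most similar pattern over the 9 libraries were found by the root-mean-square difference of centred log2 values among 8236 genes. Smaller values are closer. For Cyp8b1 they were the retinol saturase gene Retsat (0.32), the glucuronosyltransferase gene Ugt2b38 (0.35) and Cyp7b1 itself (0.48). For Cyp7b1 they were the male-biased cytochrome gene Cyp2d9 (0.43), the carboxylesterase gene Ces3b (0.44) and Retsat (0.47), with Cyp8b1 at rank 4. Cyp7a1 was closest to Bnip3 (0.38), Fgf1 (0.43) and Akr1c19 (0.43). From Cyp7a1, Slc27a5 was at rank 59, Cyp27a1 at 216, Amacr at 289 and Baat at 394. Akr1d1 was at rank 1504, Cyp39a1 at 1952, Cyp8b1 at 2165, Cyp7b1 at 3315 and Cyp2c70 at 5300. A rank depends on the gene it is counted from. At the same distances (1.06 and 1.15), Cyp7a1 was at rank 132 from Cyp8b1 and at rank 77 from Cyp7b1. Cyp27a1 was closest to Chpt1 (0.18), Igfals (0.19) and Mccc2 (0.21), and Baat was at rank 22. Each distance shares the same 9 libraries and has no test.

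Other enzymes and regulators of the pathway were counted from a list of 21 genes. Of these 17 could be tested, 12 rose in SAR against model livers and none fell, beside the 13.2% and 16.1% of all genes given above. In model against normal livers 10 of the 17 fell and none rose, beside 19.1% and 19.9%. In SAR against normal livers 1 rose and none fell, beside 1.72% and 1.85%.

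Among the other enzymes, Sult2a8, a mouse liver sulfotransferase of bile acids, stood at 14152, 16622 and 16795 normalised reads in the SAR libraries and at 276, 314 and 2283 in the model libraries. It rose by 4.78 (log2, SE 0.68, limma adjusted p = 0.00214), and by 5.76 without model library c. In the normal libraries it stood at 12527, 9735 and 624, with normal library c within the model range, and model against normal was not called (log2 -2.86, limma adjusted p = 0.0997). The peroxisomal side-chain enzymes Acox2 (log2 0.94) and Hsd17b4 (1.07), the peroxisomal importer Abcd3 (1.19) and Cyp2a12 (0.87), which rehydroxylates secondary bile acids in mice, also rose in SAR against model livers (limma adjusted p = 0.00823, 0.017, 0.0482 and 0.025). The Sult2a8 and Acox2 calls held in each alternative tried.

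The calls of Hsd17b4, Abcd3 and Cyp2a12 depended on single libraries. Hsd17b4 no longer passed with SAR b (0.0616), SAR c (0.0694), model a (0.0611) or model b (0.081) left out, by adjusted p. Abcd3 no longer passed with SAR b (0.132), SAR c (0.156), model a (0.158) or model b (0.163) left out, nor with no filter (0.0543), TMM scaling (0.0517) or 1 fit of the 9 libraries (0.0696). For Cyp2a12 this was so for SAR a (0.0523), SAR b (0.101), SAR c (0.0627), model a (0.0781) and model b (0.0947). A part of the Cyp2a12 transcript, 3.97% of its 100-base stretches, is shared with Cyp2a22, so its reads are less certain.

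In model against normal livers Acox2 (log2 -1.22), Hsd17b4 (-1.46), Abcd3 (-1.95) and the peroxisomal thioesterase Acot8 (-1.41) fell (limma adjusted p = 0.00207, 0.00941, 0.0168 and 0.0109). Abcd3 no longer passed with model a (0.0679), model b (0.0701), normal a (0.061) or normal b (0.0552) left out. Acot8 overlaps Snx21 on the opposite strand, and no strand setting is stated. Slc27a2 and Scp2, which activate the side chain and cleave it in peroxisomes, could not be split by library in SAR and normal livers. In the authors' deposited table Slc27a2 had means of 40087 in SAR and 15672 in model livers (adjusted p = 6.47e-07) and of 17101 in model and 39579 in normal livers (adjusted p = 6.25e-05). The same authors' deposited table gave Scp2 folds of 2.14 for SAR against model and 0.435 for model against normal livers, with part of its reads possibly shared with the pseudogene Scp2-ps2. Cyp46a1 averaged 12.8, 7.54 and 12.4 normalised reads in SAR, model and normal livers and passed no test, and Ch25h was too low to test.

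Of 10 regulators, 7 rose in SAR against model livers, where 13.2% of all genes tested rose. Nr0b2, which encodes SHP, the repressor of Cyp7a1 and Cyp8b1 transcription, stood at 1384, 1516 and 1337 normalised reads in the SAR libraries, at 378, 653 and 625 in the model libraries and at 575, 240 and 414 in the normal libraries. The 3 SAR libraries were above the 6 others. Nr0b2 rose against model livers (log2 1.41, SE 0.22, limma adjusted p = 0.00298) and against normal livers (log2 1.87, SE 0.28, limma adjusted p = 0.0259). The rise against normal livers no longer passed with SAR a (0.0892), SAR b (0.0871), SAR c (0.0616) or normal b (0.0548) left out.

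Hnf4a, a hepatocyte transcription factor that also stands on the hepatocyte marker list, stood at 10500, 12137 and 10114 normalised reads in the SAR libraries, at 4133, 5163 and 5009 in the model libraries and at 12692, 11711 and 12030 in the normal libraries. It rose in SAR against model livers (log2 1.22, limma adjusted p = 0.00556) and fell in model against normal livers (log2 -1.36, limma adjusted p = 0.00481), and both calls held in each alternative tried. Nr1h4, which encodes FXR, rose in SAR against model livers (log2 1.14, limma adjusted p = 0.0115), but did not pass with model b left out (0.0552). It fell in model against normal livers (log2 -0.93, limma adjusted p = 0.0283), but did not pass with model a (0.102), model b (0.105), normal a (0.0594), normal b (0.0607) or normal c (0.0614) left out.

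Nr5a2 (log2 0.71), Klb (1.15), Prox1 (0.78) and Rxra (0.97) also rose in SAR against model livers. They encode LRH-1, the FGF15 co-receptor beta-Klotho, a corepressor and the RXR partner of FXR. With SAR b left out their adjusted p-values in limma were 0.126, 0.136, 0.0996 and 0.0859, in the order named. They were 0.118, 0.157, 0.0922 and 0.0906 with SAR c left out, 0.119, 0.156, 0.0892 and 0.0853 with model a left out, and 0.104, 0.137, 0.0964 and 0.101 with model b left out. Klb also did not pass with no filter (0.0574) or TMM scaling (0.0508). In model against normal livers the same 4 fell, with log2 fold changes of -1.02, -2.19, -1.10 and -1.54, and those calls held in each alternative tried. Prox1 overlaps an antisense gene, Prox1os. Nr1h3, Fgfr4 and Mafg, which encode LXR-alpha, the FGF15 receptor and a repressor that FXR induces, passed no test in the 3 comparisons.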

How the data were processed

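Per the labels' protocols, RNA came from liver by Trizol extraction and an NEBNext Ultra kit. Submitters' processing notes name build mm9. The aligner, the counter and the annotation were not given in the sources used here. The authors deposited 2 tables of group means. Their signal is read counts over DESeq size factors, averaged by group, per the file headers. The deposited fold divides 1 group mean by the other, the deposited log2 value is its log2, and the deposited p-values come from DESeq as run by the authors. Of 16521 IDs 16490 matched a symbol.

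Reads per library were recovered from the deposited means, which carry 15 digits: each mean was solved for the 3 whole read numbers that give it with the size factors of the group. For the model group 16147 of 16147 genes in both tables had 1 solution, and 374 of 374 in a single table. For the normal group 16194 of 16351 had 1 solution from the mean alone and 103 more with the other columns. For the SAR group these numbers were 16228 of 16278 and 9. In all 9 libraries 16434 genes were recovered, the 10 members among them. In a check on 1000 normal-group genes of middling level, means shifted by a small amount were solved in 0 of 1000 cases and true means in 1000 of 1000. Solved here means at least 1 solution. Members with higher normal means, such as Cyp8b1 and Slc27a5, lay outside the range of this check. On simulated data 3889 of 3925 genes had 1 solution, and 3889 of these were right. Recomputed size factors differed by at most 0.237%. No table pairs SAR with normal livers, so factors for that pair, and for the scale common to 9 libraries, were computed as medians of ratios.

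Genes with a mean of at least 10 over 6 libraries were tested with limma 3.58.1 (R 4.3.3), trended variance, on log2(value + 1), two-sided, each comparison on its own 6 libraries and scale. P-values were adjusted by Benjamini-Hochberg over every gene tested, with a threshold of 0.05. The scale understates the change of low genes. The fit was tested on simulated data. An exact permutation test of 3 against 3 cannot go below 0.1, so none was run. Alternatives were a pseudocount of 10, no filter, TMM scaling, 1 fit of 9 libraries and leaving out libraries.

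The members and lists were chosen with earlier results of these data known. The text names the 10 members, the listed pathway genes that passed and, for Cyp7a1, Cyp8b1, Cyp27a1 and Cyp7b1, the 3 genes most alike. Clock, sex-biased, Y-linked and acute phase genes, and listed genes that passed no test, were named after their values were seen. Hsd3b7 was not analysed here.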

Additional observations from a re-analysis of the deposited data

How the results depend on the processing

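No paired analysis was possible because the recovered libraries carry no replicate numbers. Count tests (edgeR, DESeq2) were not run. The files hold no counts as deposited, and the recovered reads were not put through such a test. For the members and called pathway genes 583 alternatives were computed: 502 kept direction and side of the threshold, 57 lost the call, 8 gained one and 16 changed sign. TMM moved the median of all genes by -0.012 at most. In SAR against model, 3654 genes were called, and 1544 to 5163 when 1 library was left out, with 6 to 9 members higher. In model against normal 4909 were called, against 2438 to 5795, and 7 members fell each time. In SAR against normal 415 were called, against 6 to 1084, with 0 to 1 member lower. Without library c of both groups 1034 were called, with 1 member higher and 2 lower. Without library c of both groups the log2 fold change against normal was -4.30 for Cyp8b1 and -4.73 for Cyp7b1 in model livers. Sign changes came with leaving out 1 library. In SAR against normal the ranges were -0.16 to 0.27 for Cyp27a1 (-0.16 without library c of both groups), -1.002 to 0.32 for Cyp7b1, -0.25 to 0.38 for Cyp39a1, -0.18 to 0.037 for Amacr and -0.062 to 0.18 for Baat. They were -0.090 to 0.65 for Cyp39a1 in SAR against model, and -0.59 to 0.16 for Cyp39a1 and -0.94 to 0.12 for Cyp2c70 in model against normal. The causes were not tested. The fewest reads of a member in a library were 84 (Cyp7a1).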
